A study of Rattus norvegicus with 84 samples.

Results

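The mRNA cargo of extracellular vesicles (EVs) isolated from the stroke hemisphere was compared between rats that received human neural stem cells (hNSCs) and rats that received saline, 4 days after stroke and 1 day after the transplantation. The comparison covers the rows of annotated genes in the count table and 6 of the 84 libraries of the series, 3 per group. Of 18782 annotated genes, 14515 had enough counts across the 21 brain mRNA libraries to be tested, and 3842 had no count in any of the 6 libraries. All 6 rats were male wild-type Sprague-Dawley animals of 8 to 12 weeks in which the right middle cerebral artery was occluded for 90 min and then reopened. On day 3, the hNSC group received 200000 cells through the carotid artery and the control group received saline. The supplementary methods of the study put the cells in glucose buffer and give the control as saline only. A difference in vehicle cannot be told apart from the cells. Both groups carried the stroke and the second surgery. Brain EVs came from enzymatically dissociated ipsilateral tissue and passed filtration, ultracentrifugation and size exclusion chromatography. The transplanted cells are human, and the deposited counts are against the rat genome alone.

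EVs are membrane-bound particles that cells release from endosomes or from the plasma membrane, and they carry fragments and intact copies of their parent cells' RNA. In the brain, neurons, astrocytes, oligodendrocytes, microglia and vessel cells all release them. After ischemia, microglia and astrocytes become reactive, neurons in the core die, and blood cells enter the tissue, so an EV preparation from the injured hemisphere mixes cargo of many cell types. In such bulk EV RNA, fewer EVs from a cell type and less of an mRNA per EV cannot be told apart.

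The main observation was negative at the level of single genes. Under a 7-group model of the brain libraries, edgeR's quasi-likelihood test with Benjamini-Hochberg adjustment called 0 genes (percent called 0) at an adjusted p under 0.05 and a change of more than 1.5-fold, and the smallest adjusted p was 0.0971. At an unadjusted p under 0.05, 1093 of 14515 genes passed (7.53%), of which 287 were higher in the hNSC group (1.98%) and 806 were lower (5.55%). Most of these genes were at 0 in every library of 1 group, as given below. On the FPKM scale, by limma on log2(FPKM + 1), 692 of 7836 genes passed that p, 12 higher and 680 lower. DESeq2 on the same table called 220 genes (1.52%), 41 higher (0.282%) and 179 lower (1.23%). Of these 220, 165 had no count in any hNSC library and 33 had none in any control library, and 12 had counts in all 6 libraries. Limma on the deposited FPKM values called 0 genes at each pseudocount and filter tried.

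The 6 libraries were of similar total size but differed in what the counts fell on. Totals over all rows ran from 14792310 to 24159209 in the control group and from 17401518 to 21642155 in the hNSC group (exact permutation test, two-sided, p = 1, n = 3 per group). Annotated genes took 25.3%, 23.2% and 22.0% of the counts in control replicates 1 to 3 and 10.6%, 20.6% and 15.8% in hNSC replicates 1 to 3. Every hNSC library was thus below every control library in this share (23.5% ± 1.65 against 15.7% ± 5.00, SD, n = 3 each, exact permutation p = 0.1, the smallest that 3 against 3 allows). The remaining counts fell on rows of predicted new genes, which are not among the genes described here.

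The number of annotated genes with at least 1 count was 13152, 12733 and 12631 in the control libraries and 8828, 12831 and 11447 in the hNSC libraries. The groups overlapped, with hNSC replicate 1 far below the others (exact permutation p = 0.3, n = 3 per group). Thinned to the lowest annotated total, 1847441 counts, the expected number was still between 12522 and 13004 in the control libraries and 12734 in hNSC replicate 2. In hNSC replicate 1, 39.7% of tested genes were at 0, against 13.5% and 22.3% in hNSC replicates 2 and 3 and 11.6% to 14.8% in the control libraries. As many as 1944 genes were at 0 in hNSC replicate 1 while all other 5 libraries counted them, and for the other libraries this number was between 29 and 301.

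**Figure D1:**
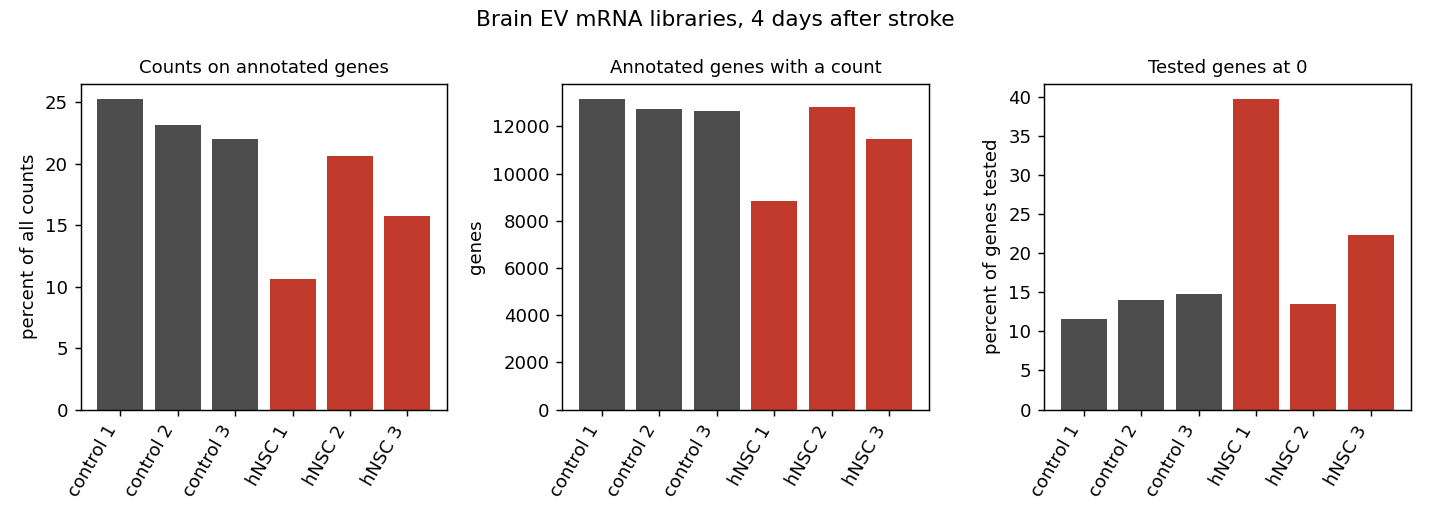
Share of all counts on annotated genes (percent), number of annotated genes with a count, and share of tested genes at 0 (percent) in each of the 6 brain EV libraries, with control libraries in dark grey and hNSC libraries in red. The hNSC libraries hold 10.6% to 20.6% of their counts on annotated genes against 22.0% to 25.3% in control, and hNSC replicate 1 stands apart with 8828 genes detected.

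For the 7894 tested genes with counts in all 6 libraries, the 2 groups sat close together after TMM normalization. Their median log2 fold change, hNSC over control, was 0.00, 3969 lay above 0 and 3925 below, and 74.0% of them differed by less than 1.5-fold. At an unadjusted p under 0.05, 140 of them passed, 60 higher and 80 lower. Precision rose with abundance. The median standard error of the log2 fold change was 0.63 over these genes and 0.30 over the 764 genes with a mean log2 CPM (counts scaled to library size) over 8, and for 572 of the latter (74.9%) the 95% interval of the change lay inside 2-fold in both directions. Over all 7894 genes it did so for 1483 (18.8%), so that for most of them the interval did not exclude a 2-fold difference. The centre of these genes is set in part by TMM normalization, which takes most genes as unchanged. With counts scaled to the total of all rows, the median of all tested genes was -0.64. The set also leaves out every gene at 0 in any of the 6 libraries, including 1944 at 0 in hNSC replicate 1 alone.

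The remaining 6621 tested genes had a 0 in at least 1 of the 6 libraries, and 953 of the 1093 genes at an unadjusted p under 0.05 were among them. Among these 6621 genes, 726 were lower in the hNSC group at that p and 227 higher. Genes at 0 in every hNSC library passed it in 147 of 147 cases with counts in all 3 control libraries. The numbers were 272 of 284 with counts in 2 control libraries and 231 of 418 with counts in 1. With 0 in every control library, 4 of 4 passed with counts in all 3 hNSC libraries. It was 53 of 53 with counts in 2 hNSC libraries and 159 of 203 with counts in 1. As many as 147 genes had counts in all 3 control libraries and none in any hNSC library, and 4 showed the reverse. For the 147, the 3 control libraries held between 9 and 520 counts per gene (median 126), and a floor of 3 counts over the hNSC group puts their differences at least 1.93-fold to at least 111-fold lower (median 27.0). The 4 reverse genes held 75 to 101 counts over the hNSC libraries, and their bounds run from at least 38.9-fold to at least 52.4-fold higher. These bounds cover counting error only, since no molecular identifiers are stated for these libraries.

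**Figure D2:**
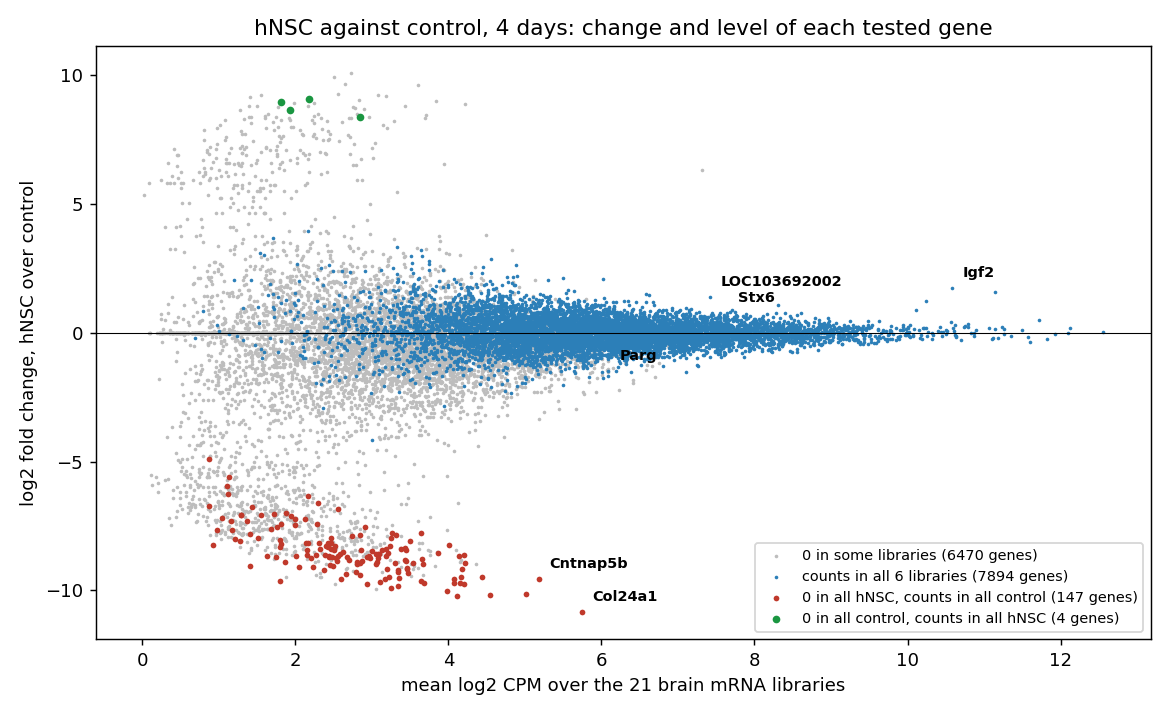
Log2 fold change (hNSC over control, y axis) against mean log2 CPM over the 21 brain mRNA libraries (x axis) for the 14515 tested genes, with genes counted in all 6 libraries in blue, genes at 0 in some in grey, genes at 0 in all hNSC libraries in red and the 4 of the reverse pattern in green. The 7894 genes with counts in all 6 libraries centre on a log2 change of 0.00 after TMM normalization. The 147 red genes form a separate band whose distance from 0 depends on the prior count of the fit.

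Because edgeR called no gene, the genes named first are those of smallest unadjusted p whose groups did not overlap. They were taken among genes of a mean log2 CPM over 3, 9 in the upper and 10 in the lower direction. None of them passed the adjustment by edgeR. DESeq2, which called 1.52% of all tested genes, called each of the 10 lower ones. Its adjusted p ran from 5.9e-48 for Rasa2 to 3.0e-05 for Cdh18. For Rasa2 it rests on a fitted log2 fold change of -23.2, with 0 counts in every hNSC library and no floor set. The genes were picked by p from the same counts, so these DESeq2 calls are no separate evidence. Of the higher ones it called LOC103692002, Rnf165, Stx6, Fam208a and LOC100911399. Over all tested genes, the 3 hNSC libraries lay wholly above the 3 control libraries for 381 genes (2.62%) and wholly below them for 990 (6.82%).

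In the upper direction, the genes had counts in every library. LOC103692002, an uncharacterized locus, measured 63.7, 115 and 91.4 CPM in control replicates 1 to 3 and 268, 288 and 158 CPM in hNSC replicates 1 to 3 (log2 fold change 1.41 ± 0.36, SE, edgeR adjusted p = 0.498). The locus LOC108352829 was more abundant, at 1069, 1289.7 and 1137 CPM in control and 4279, 4534 and 1762 CPM in hNSC libraries (log2 fold change 1.60 ± 0.57). For both loci, hNSC replicates 1 and 2 were far above the controls and hNSC replicate 3 was nearer to them.

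Both genes described next had a narrow separation. Stx6, a SNARE protein of the trans-Golgi network and endosomes, measured 165, 152 and 205 CPM in control and 356, 286 and 250 CPM in hNSC libraries (log2 fold change 0.77 ± 0.25, edgeR adjusted p = 0.498). Epn1, an endocytic adaptor of clathrin-coated pits, measured 429, 373 and 275 CPM in control and 613, 523 and 589 CPM in hNSC libraries (log2 fold change 0.68 ± 0.25). Neither gene's groups touched.

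Fam208a, a subunit of the HUSH silencing complex, measured 78.1, 47.3 and 80.1 CPM in control and 212, 122 and 138 CPM in hNSC libraries (log2 fold change 1.20 ± 0.39). Nelfe, a subunit of the negative elongation factor of RNA polymerase II, measured 46.6, 44.4 and 34.6 CPM in control and 168, 85.6 and 66.8 CPM in hNSC libraries. In both genes the highest value of the 6 was that of hNSC replicate 1. The ubiquitin-conjugating enzyme gene Ube2r2 had its highest value in hNSC replicate 3, at 146 CPM, with 31.2 to 63.7 CPM in control. Rnf165, a RING-finger ubiquitin ligase, ran from 8.39 to 13.2 CPM in control and from 25.9 to 132 CPM in hNSC libraries, and LOC100911399 from 3.03 to 5.06 and from 10.3 to 88.5 CPM.

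In the lower direction, all 10 genes were at 0 in every hNSC library. Cntnap5b, a contactin-associated cell adhesion gene of neurons, measured 19.9, 21.1 and 13.9 CPM in the control libraries (at least 53.8-fold lower in hNSC, edgeR unadjusted p = 9.55e-06, adjusted p = 0.0971). Col24a1, a fibrillar collagen gene, measured 18, 99.8 and 17.3 CPM (at least 111-fold lower, adjusted p = 0.0971). Both were the only genes called when no filter on low counts was applied, with an adjusted p of 0.0403 by edgeR.

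The other genes of this set covered several functions. Cell adhesion and vesicle genes included Cdh18, a cadherin of neurons, at 14, 10.1 and 5.63 CPM in control, and Syt16, a synaptotagmin relative, at 9.42, 25.3 and 20.4 CPM. Ttll1, which adds glutamate chains to tubulin, measured 7.71, 32.2 and 12.1 CPM, and Rasa2, a GTPase-activating protein for Ras, 33.1, 35.1 and 14.3 CPM. RNA and DNA maintenance genes included Trmt1l, a tRNA methyltransferase relative, at 18.7, 19.1 and 49.8 CPM, and Msh3, a mismatch repair gene, at 25, 28.0 and 23.8 CPM. Adgb, the androglobin gene, measured 11.1, 9.23 and 32.0 CPM, and Mocs2, of molybdenum cofactor synthesis, 16.4, 28.9 and 15.2 CPM. Their bounds run from at least 30.4-fold lower for Cdh18 to at least 86.4-fold lower for Trmt1l, with adjusted p values by edgeR of 0.104 to 0.175.

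**Figure D3:**
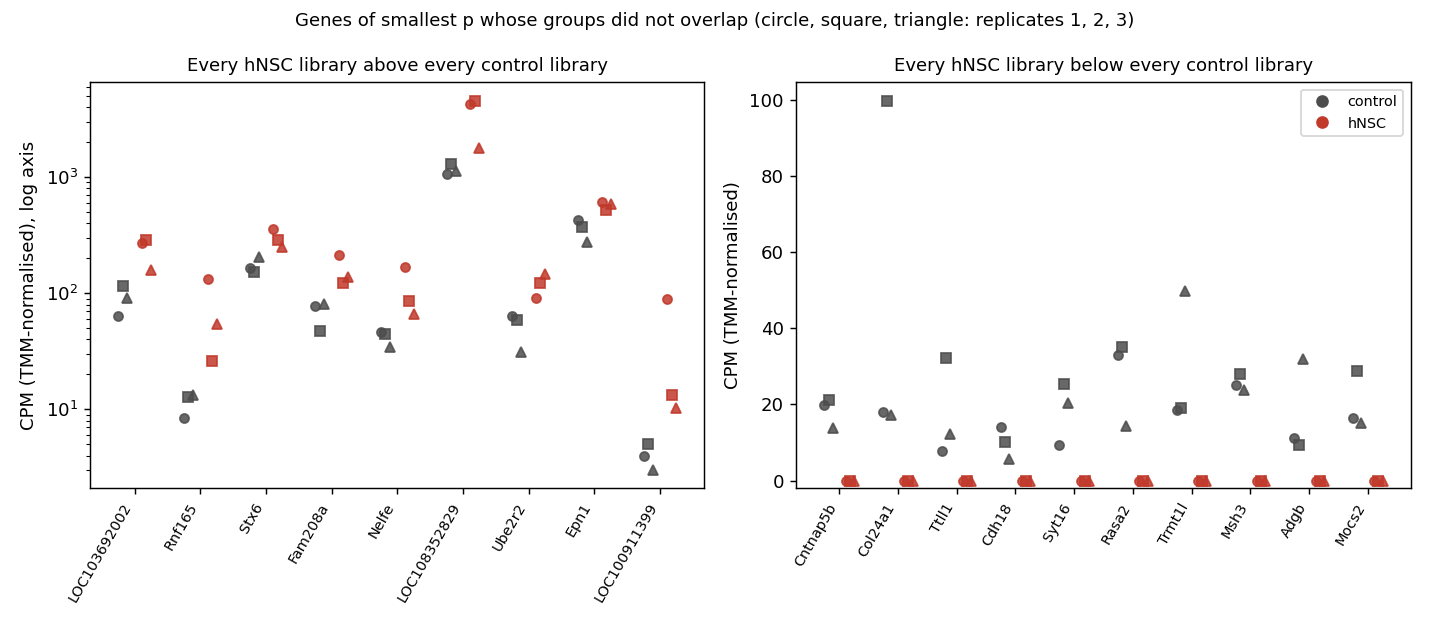
CPM after TMM normalization in each of the 6 libraries for the genes of smallest p whose groups did not overlap, 9 higher and 10 lower (left panel, log axis; right panel, linear axis; dark grey control, red hNSC; circle, square and triangle mark replicates 1, 2 and 3). On the left the groups are separated by a small margin, as for Epn1 with 429 CPM as the highest control and 523 CPM as the lowest hNSC value, and on the right every hNSC point is at 0.

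A further group of genes with counts in all 6 libraries was looked at after their values were seen, because DESeq2 called them. The 12 genes were LOC103692002, Stx6, Fam208a, Rnf165, LOC100911399, Igf2 and Ppp1r3d on the higher side and Parg, Nars, Brinp2, Asun and Chordc1 on the lower side. Igf2, the insulin-like growth factor gene that choroid plexus and meninges express in adult brain, measured 266, 169 and 203 CPM in control and 968, 970 and 212 CPM in hNSC libraries (edgeR log2 fold change 1.75 ± 0.49, adjusted p = 0.498, DESeq2 adjusted p = 0.0272). In hNSC replicates 1 and 2 it was several times the controls, and hNSC replicate 3 fell within the control range. Ttr, the transthyretin gene that marks choroid plexus, measured 165, 42.0 and 11.3 CPM in control and 97.6, 224 and 65.4 CPM in hNSC libraries, so that the groups overlapped (log2 fold change 0.82 ± 0.67).

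On the lower side, Parg, which removes poly(ADP-ribose) chains, measured 85.1, 104 and 59.1 CPM in control and 26.8, 40.4 and 22.3 CPM in hNSC libraries (edgeR log2 fold change -1.47 ± 0.41, adjusted p = 0.498, DESeq2 adjusted p = 0.00713). Brinp2, a neuronal gene of the BMP/retinoic acid-inducible family, measured 59.8, 87.8 and 92.7 CPM in control and 15.6, 23.6 and 31.4 CPM in hNSC libraries. Nars, the cytosolic asparaginyl-tRNA synthetase gene, ran from 55.0 to 92.0 CPM in control and from 26.8 to 36.7 CPM in hNSC libraries. Asun, a gene of the Integrator complex, ran from 61.7 to 94.4 and from 15.4 to 29.0 CPM, and the co-chaperone gene Chordc1 from 13.1 to 54.0 and from 3.22 to 7.96 CPM. No hNSC library reached a control library for these 5 genes. The 12th gene, Ppp1r3d, a regulatory subunit of protein phosphatase 1, overlapped between groups at 1.49 to 4.63 and 2.14 to 61.7 CPM.

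The most abundant annotated mRNAs per length were shared by both groups. By mean FPKM over the 6 libraries, the top 5 were LOC310926 at 188 ± 66.6 (SD, n = 6), Apoe, the main apolipoprotein of astrocytes and microglia, at 185 ± 102, Ptms, a small acidic nuclear protein gene, at 173 ± 60, Fth1, the ferritin heavy chain gene, at 112 ± 55.8, and Basp1, a growth cone membrane protein gene, at 92.3 ± 20.8. On the count scale the groups overlapped for each of them and the smallest unadjusted p by edgeR was 0.0746, for Ptms, with log2 fold changes of 0.02 ± 0.51, -0.03 ± 0.44, 0.49 ± 0.26, 0.06 ± 0.49 and 0.36 ± 0.26 in the same order. Ptms and Basp1, whose values exceeded their standard errors, had the opposite sign on the log2(FPKM + 1) scale and with counts scaled to the total of all rows. Mean FPKM in control and hNSC libraries was 229 and 147 for LOC310926, 227 and 143 for Apoe, and 184 and 163 for Ptms. It was 133 and 90.6 for Fth1 and 102 and 83.1 for Basp1, so that each was lower in the hNSC group. Summed FPKM of annotated genes had means of 17033 in control and 11154 in hNSC libraries.

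The gene lists were read by their counts and medians, beside the median log2 fold change of all tested genes, -0.11. No member of any list was called by edgeR, and the smallest adjusted p was 0.0971, on the study's list of glutamatergic neuron markers, and 0.153 in the lists written by function or source. DESeq2, which called 1.52% of all tested genes, called some members described below. Among them were Atr, Cxcl10, Mest, Ndufa4, Npas4, Nr4a2, P2rx6, Plcxd3, Prr29, Psma5 and Psmb9. Each but Nr4a2 was at 0 in every library of 1 group. Scaling to the total of all rows moved the median of all genes to -0.64, so that list medians are read against that of all genes. Across 16 alternative settings, the lists of homeostatic microglia, striatal medium spiny neurons, interferon response and immediate early genes lay above the median of all genes in every one, and DNA repair, heat shock and endothelial genes below it. The other functional lists described here crossed it under at least 1 alternative.

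Markers of homeostatic microglia and complement components lay above the other genes in value. Of 13 tested members, 11 had a positive log2 fold change and the median was 0.54, while 0 were higher and 0 lower at an unadjusted p under 0.05. C1qa, the complement subunit gene of microglia, measured 213, 108 and 73.4 CPM in control and 220, 271 and 93.1 CPM in hNSC libraries (log2 fold change 0.57 ± 0.66), so the groups overlapped. Gpr34, a microglial lysophospholipid receptor gene, ran from 3.03 to 15.2 CPM in control and from 8.82 to 47.7 CPM in hNSC libraries, and Sall1, a transcription factor gene of microglia, from 49.4 to 113 and from 79.1 to 160 CPM. The member with the smallest p pointed the other way. C3, the central complement component, measured 19.2, 18.8 and 36.8 CPM in control and 0, 0 and 15.1 CPM in hNSC libraries (log2 fold change -2.23 ± 1.11, unadjusted p = 0.056 by edgeR). Without hNSC replicate 1 the list median was 0.48 and 12 of 13 members were positive.

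Genes of damage-associated microglia and phagocytes, which take up lipid and debris, did not share that position. Of 19 tested members, 7 were positive and 12 negative, with a median of -0.10, and without hNSC replicate 1 the median was 0.11. Lyz2, the lysozyme gene of myeloid cells, measured 370, 149 and 83.4 CPM in control and 62.2, 217 and 113 CPM in hNSC libraries. Itgax, an integrin gene of activated myeloid cells, had counts in 2 control libraries (16.3 and 11 CPM) and 0 in the third and in all hNSC libraries.

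Astrocyte and reactive gliosis genes had a median of -0.22 over 16 tested members, 5 positive and 11 negative. Ndrg2, an astrocyte-enriched gene, measured 258, 267 and 289 CPM in control and 148, 211 and 185 CPM in hNSC libraries, with no overlap (log2 fold change -0.58 ± 0.38, unadjusted p = 0.142 by edgeR). Aldoc, the brain aldolase of astrocytes, measured 246, 232 and 235 CPM in control and 137, 250 and 122 CPM in hNSC libraries, and the glutamate transporter gene Slc1a2 127, 115 and 85.8 and 56.3, 48.1 and 112 CPM. Both overlapped between groups. Myelin and oligodendrocyte genes had a median of -0.13 over 19 members, 7 positive and 12 negative, close to that of all genes. Mog, a myelin surface protein gene, measured 37.7, 8.64 and 36.4 CPM in control and 0, 4.27 and 8.28 CPM in hNSC libraries (log2 fold change -2.68 ± 1.35, unadjusted p = 0.059 by edgeR). Ermn, a cytoskeletal gene of mature oligodendrocytes, ran from 28.9 to 39.0 CPM in control and from 7.51 to 30.5 CPM in hNSC libraries. Mobp, the myelin-associated oligodendrocyte basic protein gene, ran from 327 to 635 and from 239 to 347 CPM.

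Synaptic genes were almost all present in every library and close to 0 in change. The medians were -0.07 for 22 presynaptic genes, 0.15 for 17 postsynaptic density and CaMKII genes, and 0.06 for 19 glutamate and GABA receptor genes, or -0.09 for the last without hNSC replicate 1, and no member of these lists passed an unadjusted p of 0.05 in either direction. Syn2, a synaptic vesicle phosphoprotein gene, measured 152, 197 and 201 CPM in control and 224, 312 and 297 CPM in hNSC libraries, without overlap (log2 fold change 0.60 ± 0.30, unadjusted p = 0.0567 by edgeR). Homer1, a postsynaptic scaffold gene, lay the other way at 124, 118 and 117 CPM in control and 85.3, 78.5 and 68.2 CPM in hNSC libraries (log2 fold change -0.63 ± 0.45). Among receptors, the AMPA receptor subunit gene Gria3 ran from 47.2 to 87.3 CPM in control and from 89.5 to 101 CPM in hNSC libraries. Rab3a, a vesicle GTPase gene, ran from 32.5 to 107 and from 34.9 to 55.5 CPM.

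Genes of striatal medium spiny neurons, the main output neurons of the region served by the occluded artery, had 13 of 16 tested members above 0 and a median of 0.49, with 1 higher and 0 lower at an unadjusted p under 0.05. That 1 gene was Drd2, the dopamine D2 receptor gene, which had counts in hNSC replicate 2 alone (8.82 CPM) and was at 0 in the other 5 libraries. Without that library the list median was -0.09, against -0.23 for all genes. Bcl11b, a transcription factor gene of these neurons, measured 105, 174 and 188 CPM in control and 245, 288 and 198 CPM in hNSC libraries (log2 fold change 0.65 ± 0.37). Meis2, a homeobox gene, measured 13.0, 25 and 44.0 CPM in control and 63.3, 62.3 and 55.9 CPM in hNSC libraries (log2 fold change 1.15 ± 0.75). For both genes every hNSC library lay above every control library, a pattern that 2.62% of tested genes showed.

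Cytoskeletal, growth and activity genes of neurons were centred near 0. The median was 0.02 for 20 microtubule and neurofilament genes, 0.06 for 25 neurogenesis and axon growth genes and 0.19 for 19 immediate early genes. Sptan1, the spectrin alpha chain gene, measured 2966, 3169 and 2770 CPM in control and 2397, 2676 and 1882 CPM in hNSC libraries (log2 fold change -0.36 ± 0.21), and its interval of -0.79 to 0.08 leaves room for no more than a 2-fold difference. Marcks, a membrane-bound kinase substrate of growth cones, measured 1932, 1350 and 305 CPM in control and 2476, 2068 and 2159 CPM in hNSC libraries, and control replicate 3 was the one that stood apart. Among immediate early genes, Nr4a2, an orphan nuclear receptor gene, measured 16.8, 7.44 and 12.3 CPM in control and 0, 3.70 and 0 CPM in hNSC libraries (log2 fold change -3.21 ± 1.13, unadjusted p = 0.00923, adjusted p = 0.522 by edgeR). DESeq2 called Nr4a2 (adjusted p = 0.0123), and edgeR did so without hNSC replicate 2 (adjusted p = 0.0419). Npas4 had counts in control replicate 1 alone (2.91 CPM), and Egr2 ran from 1.73 to 4.63 CPM in control and from 0 to 0.856 CPM in hNSC libraries.

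Few inflammatory cytokine genes had enough counts to be tested. Of 24 cytokine, chemokine and receptor genes, 20 had a row, 7 were tested and 9 had no count in any of the 6 libraries. Of the 7 tested, 5 had counts in all 6 libraries, and 3 were positive and 4 negative. The untested members with counts had them in control libraries alone. Il1b, Tnf and Ccl2 had 93, 18 and 54 counts in control replicate 1, and Ccl6 had 38 and 49 in control replicates 1 and 2. Il1rn, the interleukin 1 receptor antagonist gene, measured 10.8, 17.0 and 0 CPM in control and 0, 0 and 0.285 CPM in hNSC libraries (unadjusted p = 0.0211, adjusted p = 0.534 by edgeR), and Cxcl10 had counts in control replicate 2 alone (7.74 CPM). Interferon-response genes had the highest median of the lists with at least 5 tested members, 0.97 over 18, with 12 positive and 5 negative, 1 higher and 0 lower at an unadjusted p under 0.05. Only 5 of the 18 had counts in all 6 libraries, and their median was 0.15. The list median was 0.16 without hNSC replicate 1, 0.13 without hNSC replicate 2 and 2.01 without control replicate 2. Mx2, an antiviral GTPase gene, measured 26.4, 50 and 5.85 CPM in control and 178, 31.3 and 26.5 CPM in hNSC libraries (log2 fold change 1.52 ± 0.93), and Isg15, a ubiquitin-like modifier, had counts in hNSC replicate 2 alone (9.96 CPM). Ifit2, an interferon-induced RNA-binding protein gene, ran from 3.25 to 25 CPM in control and from 0 to 3.43 CPM in hNSC libraries, opposite to the list.

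DNA repair genes lay furthest below the other genes among the lists of more than 20 tested members. Of 54 tested members, 38 were negative and 15 positive with a median of -0.45, and 6 were lower and 0 higher at an unadjusted p under 0.05, where 5.55% of all tested genes were lower and 1.98% higher. All 4 members of smallest p were at 0 in every hNSC library. Msh3, described above, had counts in all 3 control libraries. Atr, a checkpoint kinase gene, had counts in 2 of them (22.9 and 11.9 CPM), and Ogg1, a glycosylase gene of base excision repair, and Xrcc4, of double-strand break joining, each in 1 (7.74 and 9.74 CPM). The 18 members with counts in all 6 libraries had a median of -0.19, against 0.00 for all 7894 such genes. They were 18 of 54 members, where 7894 of 14515 tested genes had such counts. Over all tested genes the median change was -0.39 at a mean log2 CPM under 4 and -0.0032 over 8. The part of low abundance in the position of this list was not tested. Leaving out hNSC replicate 1 gave a median of -0.42 over 55 members, with 2 lower at that p. The median was -0.81 without hNSC replicate 2 and -0.11 without control replicate 2, where that of all genes was -0.08.

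Nuclear genes of oxidative phosphorylation had a median of -0.13 over 60 tested members, or 0.08 without hNSC replicate 1, with 2 lower and 0 higher at an unadjusted p under 0.05. Ndufa4 and Ndufc2, of complexes IV and I, were at 0 in every hNSC library and measured 13.2, 15.8 and 2.38 CPM and 15.1, 4.47 and 0 CPM in control. Ndufv3 ran from 14.7 to 33.7 CPM in control and from 0 to 12.0 CPM in hNSC libraries, and Cox6c from 36.6 to 94.9 and from 0 to 22.0 CPM. Without hNSC replicate 1 the median of the list was 0.08. The 26 antioxidant genes had a median of -0.10, or 0.13 without hNSC replicate 1, and Gsr, the glutathione reductase gene, measured 24.8, 22.3 and 25.8 CPM in control and 0, 0 and 12.3 CPM in hNSC libraries. No row of the count table carried a gene of the mitochondrial genome.

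Protein synthesis and turnover genes included several members at 0 in the hNSC group. Proteasome subunit genes had a median of -0.16 over 34, with 1 higher and 3 lower at an unadjusted p under 0.05, and 8 of the 34 had every hNSC library below every control library (6.82% of all tested genes did). Psmc3, an ATPase subunit of the regulatory particle, measured 132, 177 and 111 CPM in control and 94.4, 94.7 and 40.0 CPM in hNSC libraries (log2 fold change -0.88 ± 0.38, unadjusted p = 0.0308, adjusted p = 0.559 by edgeR). Psmd6, another regulatory subunit, measured 26.9, 38.1 and 13.6 CPM in control and 0, 7.96 and 0 CPM in hNSC libraries, and Psma5, a core subunit, 12.2, 4.17 and 15.6 CPM in control and 0 in all hNSC libraries. Psmb9, the interferon-inducible core subunit, had counts in hNSC replicate 3 alone (45.099 CPM).

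The median of ribosomal protein genes depended on single libraries of both groups. Over 77 genes it was -0.17, with 28 positive and 49 negative. It was 0.21 without hNSC replicate 1 and 0.19 without control replicate 1, and -0.64 without hNSC replicate 3 and -0.44 without control replicate 3. Rps12 measured 68.9, 44.7 and 6.28 CPM in control and 0, 0 and 6.85 CPM in hNSC libraries, and Rps21 had counts in 2 control libraries alone (2.91 and 7.15 CPM). These genes have many processed pseudogenes, so their counts are uncertain. Heat shock chaperones of the cytosol had a median of -0.31 over 18. Dnaja1, a co-chaperone of Hsp70, measured 107, 96.2 and 136 CPM in control and 85.3, 49.2 and 45.099 CPM in hNSC libraries (log2 fold change -0.92 ± 0.45), and Hspa2 lay the other way at 17.5, 28.3 and 9.53 CPM in control and 42.9, 57.2 and 47.7 CPM in hNSC libraries (log2 fold change 1.42 ± 0.81). Neither gene's groups overlapped.

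Endoplasmic reticulum chaperones had a median of -0.26 over 17, or 0.05 without hNSC replicate 1, and Canx, the calnexin gene, measured 373, 400 and 374 CPM in control and 176, 311 and 365 CPM in hNSC libraries. Lysosomal genes had a median of -0.15 over 22, or 0.08 without that library, with Npc1, a cholesterol exporter of the lysosome, at 43.2, 55.7 and 30.5 CPM in control and 0, 12.2 and 10.6 CPM in hNSC libraries. Iron-handling genes had a median of -0.16 over 8, or 0.13 without it, and lipid transport genes -0.15 over 15. Lrp8, an apolipoprotein E receptor gene, ran from 204 to 215 CPM in control and from 113 to 179 CPM in hNSC libraries, a separation without a call (log2 fold change -0.48 ± 0.31). Tfrc, the transferrin receptor gene, ran from 35.1 to 68.0 and from 0 to 52.8 CPM. Cell cycle genes had a median of -0.06 over 21, or 0.16 over 23 without hNSC replicate 1, and Ccna2, cyclin A2, had counts in 2 control libraries alone (17.1 and 10.7 CPM).

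Endothelial, pericyte and barrier genes had a median of -0.32 over 24, with 7 positive and 17 negative. Vegfa, the vascular growth factor gene kept in this list, lay above at 125, 98.3 and 102 CPM in control and 135, 189 and 175 CPM in hNSC libraries (log2 fold change 0.61 ± 0.31, unadjusted p = 0.0636 by edgeR), and Vtn, the vitronectin gene of pericytes, had counts in 2 control libraries alone (7.02 and 4.47 CPM). Matrix and scar genes had a median of 0.02 over 28, with 14 positive and 14 negative. Bcan, the brevican gene of the perineuronal matrix, measured 185, 192 and 177 CPM in control and 394, 305 and 200 CPM in hNSC libraries (log2 fold change 0.69 ± 0.32, unadjusted p = 0.0385, adjusted p = 0.604 by edgeR). Its groups did not overlap, with hNSC replicate 3 just above the controls. Mmp12, a macrophage elastase gene, had counts in hNSC replicate 1 alone (9.12 CPM).

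Genes of exosome biogenesis and tetraspanins, which include the usual EV markers, had a median of -0.10 over 23, or 0.11 without hNSC replicate 1, with 10 positive, 13 negative and 0 at an unadjusted p under 0.05 in either direction. Vps4b, the ATPase that releases the ESCRT machinery, measured 57.7, 26.8 and 61.1 CPM in control and 0, 26.7 and 25.7 CPM in hNSC libraries. These values are mRNA in EVs and say nothing of the marker proteins.

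**Figure D4:**
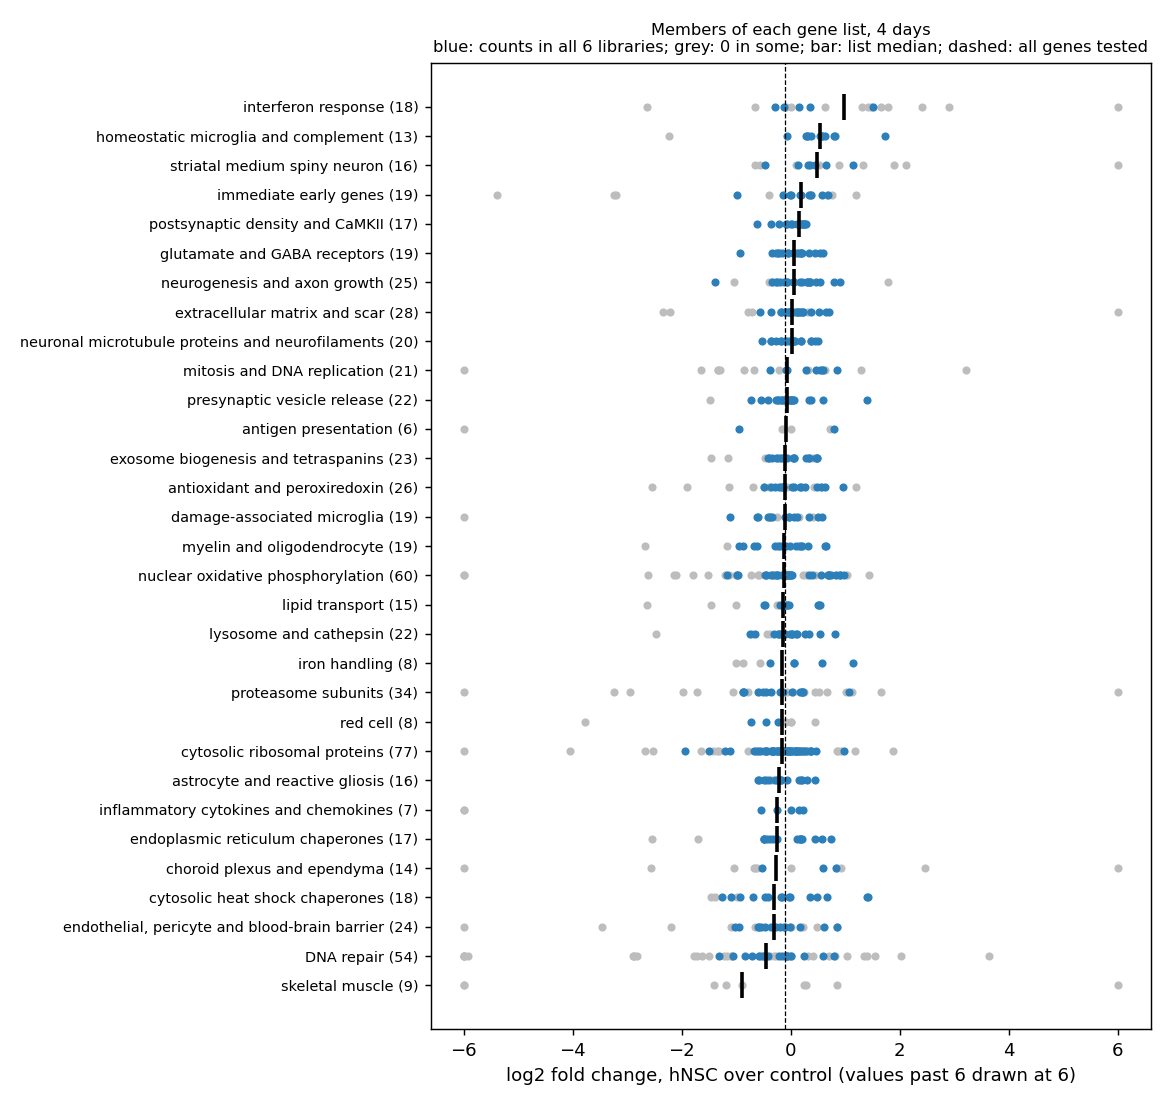
Log2 fold change (hNSC over control, x axis, values past 6 in either direction drawn at 6) of every tested member of the gene lists with at least 5 tested members, with the list median as a bar and the median of all genes, -0.11, as a dashed line. Blue points are genes with counts in all 6 libraries and grey points genes with a 0; the medians run from 0.97 for interferon response to -0.89 for skeletal muscle, and the grey points carry the widest values.

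Markers of other sources were low or absent. Of 14 T and NK cell genes, 13 with a row, 10, of 8 B cell genes the 7 with a row, of 11 neutrophil genes 7, of 10 platelet genes 9 and of 12 liver genes 10 had no count in any of the 6 libraries, and Cd3e, Cd79a, S100a8 and Ckm were at 0 throughout. Their part in any result was not tested. Pf4, a platelet chemokine gene, had counts in 2 control libraries and 1 hNSC library (10.1, 9.53 and 2.85 CPM), and Cd8a ran from 2.17 to 11.8 CPM in control and from 0 to 2.28 CPM in hNSC libraries. Hemoglobin was present in all libraries. Hba2 measured 66.1, 119 and 69.5 CPM in control and 47.2, 63.7 and 42.5 CPM in hNSC libraries (log2 fold change -0.72 ± 0.36, unadjusted p = 0.0546 by edgeR), and its near-identical copies make the split of reads uncertain. The summed CPM of the red cell list ran from 103 to 251 in control and from 114 to 177 in hNSC libraries.

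Single-library genes appeared among other tissue markers. Folr1, a choroid plexus folate receptor gene, Pomc, the pituitary prohormone gene, and Acta1, skeletal muscle actin, had counts in hNSC replicate 2 alone (9.96, 11.1 and 4.84 CPM), the library in which Drd2 and Isg15 were also counted. Cfap126, a cilium gene, and Ciita, the class II transactivator gene, had counts in control replicate 1 alone (5.14 and 9.25 CPM). Tnnc2, a fast troponin gene, had 7.54, 6.25 and 2.17 CPM in control and 0 in hNSC libraries, and Neb, nebulin, had counts in 2 control libraries alone (2.74 and 18.5 CPM). Each of these genes passed an unadjusted p of 0.05 by edgeR and none an adjusted one. DESeq2 called Neb among them (adjusted p = 1.1e-16).

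The study's own cell matrix lists, 100 markers for each of 10 brain cell types, showed the same centre. Tested members numbered 56 to 94 per list, and the medians ran from -0.21 for other GABAergic neurons to 0.03 for GABAergic medium spiny neurons. At an unadjusted p under 0.05, 10 GABAergic interneuron markers were lower and 0 higher of 86, 9 other GABAergic neuron markers were lower and 1 higher of 85, 11 ependymal markers were lower and 3 higher of 56, 6 medium spiny neuron markers were lower and 0 higher of 88, and 5 cholinergic neuron markers were lower and 2 higher of 86. In the remaining lists no more than 2 were lower and no more than 1 higher, and across all tested genes 5.55% were lower and 1.98% higher. Only 7 of the 56 tested ependymal markers had counts in all 6 libraries, against 7894 of 14515 genes. Without hNSC replicate 1, 5 GABAergic interneuron, 4 other GABAergic, 8 ependymal, 5 medium spiny and 1 cholinergic neuron markers were lower. The lists overlap in part: Zfp385d, a zinc finger gene at 11.8, 25.3 and 11.5 CPM in control and 0 in hNSC libraries, stands in 3 of them.

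The leading markers were mostly genes at 0 in one group. Among neuronal lists, Plcxd3, a phospholipase-like gene, measured 24.5, 9.83 and 9.31 CPM in control and 0 in hNSC libraries (at least 46.9-fold lower), and Greb1l had counts in 2 control libraries (15.5 and 11.3 CPM). Adarb2, an RNA-editing enzyme relative of interneurons, was counted everywhere, at 46.6, 48.2 and 63.0 CPM in control and 6.43, 25.3 and 21.1 CPM in hNSC libraries (log2 fold change -1.57 ± 0.54, unadjusted p = 0.00767, adjusted p = 0.522 by edgeR). Mest, an imprinted gene on the cholinergic list, had counts in hNSC replicate 1 alone (57.4 CPM). On the ependymal list, Prr29 was at 0 in all control libraries and measured 14.5, 6.26 and 8.28 CPM in hNSC libraries (at least 40.4-fold higher, unadjusted p = 0.00253, adjusted p = 0.498 by edgeR), and P2rx6, an ATP receptor gene, showed the reverse at 4.28, 8.04 and 11.7 CPM in control. Prr29 is 1 of the 4 genes at 0 in every control library with counts in every hNSC library.

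Markers of glia and vessels on these lists gave few values. Folh1, a peptidase gene on the astrocyte list, had counts in 2 control libraries (14.4 and 9.31 CPM) and Eya4 on the oligodendrocyte list in 2 (2.68 and 9.09 CPM), each at 0 elsewhere, while Tmem117 had counts in hNSC replicate 2 alone (7.68 CPM). Clec12a, of the microglia list, measured 14.7, 0 and 3.25 CPM in control and 0 in hNSC libraries, and Arhgap15 14.6, 27.7 and 25.6 CPM in control and 0, 5.69 and 0 CPM in hNSC libraries. Upp1 and Cyyr1, of the vascular list, had their highest values in control replicate 1 (7.19 and 41.5 CPM).

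Genes that the study names for brain EVs or for staining of brain and stem cells were all measured in all 6 libraries. Of these 24 genes, 10 were above and 14 below 0 (17 above and 7 below without hNSC replicate 1), none separated the groups, and the smallest unadjusted p was 0.229 by edgeR, for Tuba1a. Structural mRNAs were high in every library. Map1a and Map1b, microtubule-associated proteins of neurons, ran from 4058 to 5918 and 4028 to 4981 CPM in control and from 4194 to 6942 and 3282 to 5604 CPM in hNSC libraries, with log2 fold changes of 0.19 (95% interval -0.36 to 0.75) and -0.03 (-0.59 to 0.54). Mbp, the myelin basic protein gene, ran from 2733 to 4584 and from 2856 to 3661 CPM (log2 fold change -0.13, interval -0.94 to 0.68), and Gfap, the intermediate filament of reactive astrocytes, from 2715 to 2865 and from 2366 to 4245 CPM (0.15, -0.55 to 0.85). For these genes, and for Apoe, Calr, Nrgn and S100b, the interval lay inside 2-fold.

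For the less abundant genes the intervals were wide. Aif1, the microglial Iba1 gene, had the largest positive value of the 24, 0.80 (interval -1.58 to 3.17), at 48.3, 58.1 and 20.8 CPM in control and 21.4, 79.1 and 120 CPM in hNSC libraries. Dag1, dystroglycan, had the lowest, -0.47 (-1.68 to 0.75), with hNSC replicate 1 at 10.2 CPM and the other 5 libraries between 64.0 and 119 CPM. Nes and Sox2, which mark neural stem cells, had values of 0.29 (-1.26 to 1.84) and -0.12 (-1.79 to 1.56), and Dcx, of neuroblasts, -0.08 (-2.75 to 2.60). Snap25, Tubb3 and Camk2n1, of neurons, had values of -0.43 (-1.39 to 0.54), 0.37 (-0.44 to 1.19) and 0.23 (-0.55 to 1.01). Vim, Jun, Park7, Prdx6, Eef1a1 and Pecam1 lay between -0.27 and 0.16, with standard errors of 0.57 to 1.41.

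**Figure D5:**
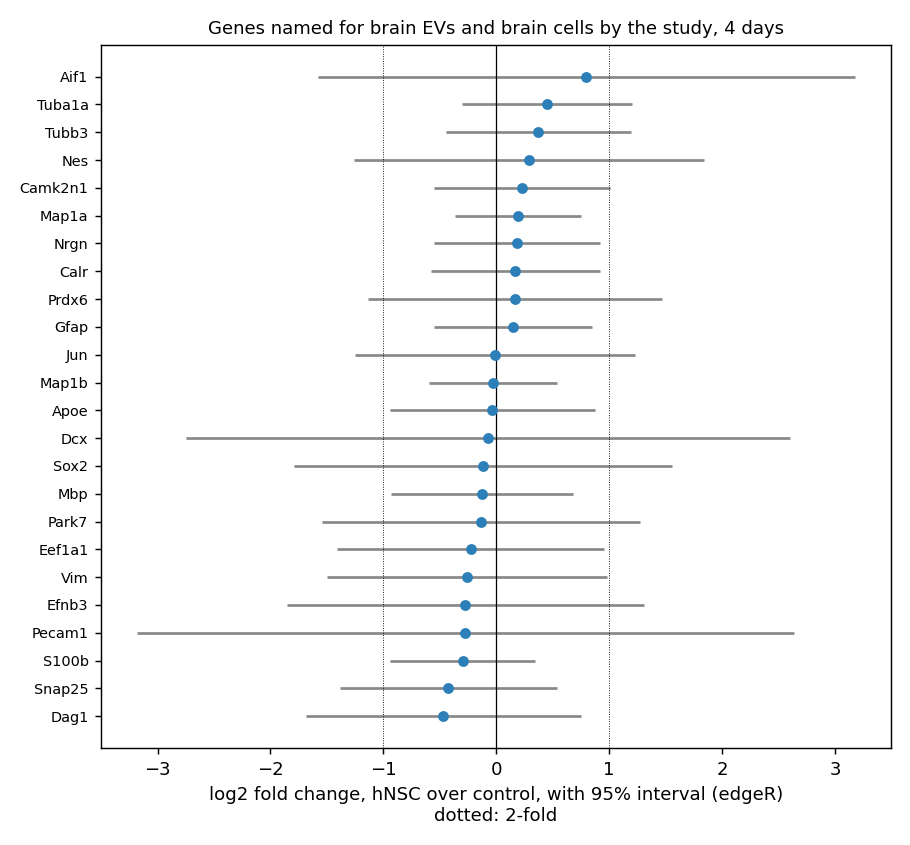
Log2 fold change (hNSC over control) with its 95% interval from edgeR for the 24 genes the study names, ordered by value, with dotted lines at 2-fold. All 24 intervals include 0, from Dag1 at -0.47 to Aif1 at 0.80, and 8 of them lie inside the dotted lines.

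Efnb3, the membrane-bound ephrin-B3 gene, is the target that the study set beside miR-204-5p, a microRNA measured in brain EVs of the same groups. Its mature sequence (RefSeq, GRCr8), with the seed of bases 2 to 8 in capitals, is shown because the seed is the part that pairs with a target mRNA.
rno-miR-204-5p: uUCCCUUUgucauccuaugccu
By molecular counts scaled to CPM of known miRNAs, miR-204-5p measured 1662, 1027 and 644 in control and 2045, 2383 and 1076 in hNSC libraries (log2 fold change 0.72 ± 0.34, edgeR unadjusted p = 0.0442, adjusted p = 0.994). The groups overlapped, with hNSC replicate 3 inside the control range. Efnb3 mRNA measured 34.9, 31.0 and 6.93 CPM in control and 27.3, 16.5 and 16.6 CPM in hNSC libraries (log2 fold change -0.27, interval -1.85 to 1.31). Its interval includes a 2-fold difference in either direction. The study's evidence for Efnb3 was a reporter assay in transfected cells, and qPCR and western blots in cultured neurons with hNSCs. The values here are EV mRNA on day 4, so the measures are unlike.

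The same contrast on the later days shares no library with that on day 4, and the difference between days was tested directly. edgeR called 0 genes for the day 4 effect minus the day 10 effect (smallest adjusted p 0.319, 1252 genes or 8.63% at an unadjusted p under 0.05) and 0 for day 4 minus day 31 (smallest adjusted p 0.469, 614 genes or 4.23%). DESeq2 called 410 and 106. For the 9 genes named as higher, log2 fold changes ran from -0.35 to 0.80 on day 10 and from -0.35 to 0.26 on day 31. For the 10 genes named as lower, fitted values ran from -8.92 for Msh3 to 0.58 for Col24a1 on day 10, with a median of -1.10, and from -0.08 for Col24a1 to 0.63 for Cdh18 on day 31. The value for Msh3 depends on the prior count. Since all these genes were chosen by their day 4 values, the difference between days is not given for them.

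Healthy rats give a level before the stroke, and the contrast of control with healthy rats uses the same control libraries, so that it is set beside the hNSC contrast as values only. The log2 fold changes of control over healthy and of hNSC over control were -2.31 and 1.75 for Igf2, -1.83 and 1.60 for LOC108352829, and -1.21 and 1.41 for LOC103692002. For Stx6 they were -0.16 and 0.77, for Epn1 0.29 and 0.68, for Parg 0.08 and -1.47 and for Brinp2 -0.14 and -1.76. For 3 glial genes chosen after their values were seen, they were 4.19 and -0.26 for Vim, 2.25 and 0.15 for Gfap, and 2.81 and 0.57 for C1qa.

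Plasma EVs of the same groups on day 4 gave 1 call among 14720 genes (0.00679%), and 580 genes (3.94%) at an unadjusted p under 0.05. The called gene was Tpx2, a spindle assembly factor, at 12.7, 13.7 and 4.50 CPM in control and 0 in all hNSC plasma libraries (edgeR adjusted p = 0.000997). In brain EVs Tpx2 measured 47.8, 36.3 and 28.8 CPM in control and 0, 21.9 and 102 CPM in hNSC libraries (log2 fold change 0.14 ± 1.46). Of the 9 genes named as higher in brain EVs, 8 were tested in plasma and 0 passed an unadjusted p of 0.05, and of the 10 lower, 5 were tested and 1 passed. That gene was Ttll1, which in plasma was at 0 in all control libraries and at 21.4, 10.7 and 6.37 CPM in hNSC libraries (edgeR unadjusted p = 0.00405, adjusted p = 0.814), the reverse of its pattern in brain EVs.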

How the data were processed

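Raw counts and FPKM per gene were deposited by the authors, made against Rnor_6.0 per the labels. By the study's methods, reads were aligned with Bowtie2 and FPKM computed with StringTie. The counting tool and its strand setting are not given in the sources used here, so antisense and overlapping genes are uncertain. The miRNA counts, also deposited by the authors, are of unique molecular identifiers. Rows of predicted new genes, 74.7% to 89.4% of counts, were left out of library sizes and tests. The tables held 0 columns of no known sample. Replicates are separate labelled samples. In the main edgeR model the spread between replicates was estimated over the brain libraries of all 7 groups. Its p-values thus do not rest on the spread within the 2 compared groups alone. With only the 6 compared libraries in the model, 298 of 12009 tested genes had an unadjusted p under 0.05 by edgeR. In the main model 1093 of 14515 did.

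Counts were fitted with edgeR 4.0.16 in R 4.3.3 (filterByExpr, TMM, quasi-likelihood F test, 1 model of 7 groups), and genes were called above 1.5-fold in either direction where p, adjusted by Benjamini-Hochberg, was below 0.05. CPM are TMM-normalised. The standard error is the absolute log2 fold change divided by the square root of F. Library measures were compared with exact two-sided permutation tests. Alternatives were DESeq2 1.42.0, limma 3.58.1 on log2(FPKM + 1) and log2(FPKM + 0.1), other filters, scalings and thresholds, the 6 libraries alone, a replicate block and each library left out. The scripts were tested on simulated data. The members, gene lists and rules were chosen with earlier results of these data known. Named genes were the 10 of smallest p per direction without overlap and with a mean log2 CPM over 3, up to 4 members of smallest p per list (2 per cell matrix list), the 24 genes the study names and the 5 of highest FPKM. Genes that this rule selects but the text does not name are not reported here. Others are marked where they appear, and list members at 0 in all 6 libraries are given as markers.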

Additional observations from a re-analysis of the deposited data

Results flagged for a closer look

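Rows of predicted new genes, which enter no comparison of annotated genes, held more of the counts in the hNSC libraries than in the control libraries. The share was 89.4%, 79.4% and 84.2% in hNSC replicates 1 to 3 (mean 84.3% ± 5.00, SD, n = 3) and 74.7%, 76.8% and 78.0% in control replicates 1 to 3 (mean 76.5% ± 1.65, SD, n = 3). It drew attention as a signal outside the main measurement that was above the control level in 3 of 3 hNSC libraries, and the exact permutation p of 0.1 is the smallest that 3 against 3 can give. It is the complement of the share on annotated genes, and its part in the differences of single genes was not tested.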

How the results depend on the processing

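The count of brain EV genes called depended on the tool. edgeR called 0, and 0 also with DESeq2 size factors, total count scaling, a minimum of 10 counts in 3 libraries, the 6 libraries alone or no fold limit, and limma on FPKM called 0 in its 3 versions. DESeq2 called 220 (41 higher, 179 lower), edgeR without a low-count filter 2 (both lower), and an unadjusted p under 0.05 with the same fold limit passed 1092 (286 higher, 806 lower). Leaving out 1 library gave 0 to 19 calls (0 higher, 0 to 19 lower); the 19 came without hNSC replicate 2, and 17 of them were at 0 in both remaining hNSC libraries. Genes at an unadjusted p under 0.05 numbered 901 without hNSC replicate 1 and 1684 without hNSC replicate 2, against 1093 (287 higher, 806 lower). They numbered 298 (103 higher, 195 lower) with the 6 libraries alone and 122 with the block, of 12009 genes tested, and 692 (12 higher, 680 lower) of 7836 by limma on log2(FPKM + 1). With the replicate number as a block, 0 genes were called in brain and 0 in plasma EVs. Deviations of same-numbered libraries correlated at -0.07, 0.01 and -0.01, and those of other pairs at -0.05 to 0.06. Such correlations cannot show whether same-numbered samples were handled as pairs. In plasma, DESeq2 called 873 genes, no filter gave 6, and leaving out 1 library gave 1 to 41 (41 without hNSC replicate 3). For the difference between days, DESeq2 called 410 (day 10) and 106 (day 31) and no filter gave 0.

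Of 1981 alternative values of 134 named genes, 39 newly passed the threshold and 29 reversed from a main value larger than its standard error. In all, 34 named genes changed sign under at least 1 alternative, 26 of them with a main value within 1 standard error of 0. Under limma at log2(FPKM + 1), filtered or not, the reversed values were -0.0058 for Sall1, -0.021 for Syn2, -0.033 for Gria3, -0.026 for Vegfa, -0.0050 for Bcan, -0.27 for Ptms, -0.32 for Basp1 and -0.14 for Tuba1a. At log2(FPKM + 0.1) they were -0.0093, -0.043, -0.085, -0.067, -0.0049, -0.27, -0.33 and -0.20 in that order. With total count scaling they were -0.012 for Sall1, -0.033 for Gria3, -0.077 for Ptms, -0.23 for Basp1 and -0.070 for Tuba1a. The median of all genes moved to -0.64 with total counts and to -0.31, -0.69 and -0.12 in the limma versions; the cause of other shifts was not tested.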
